A study of Homo sapiens with 4 samples.

Results

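The transcripts described here are those of 10 genes of the immediate early response, chosen by symbol in the gene table (10 of 61806 genes): the Fos subunits FOS, FOSB, FOSL1 and FOSL2 and the Jun subunits JUN, JUNB and JUND of the transcription factor AP-1, the zinc finger factors EGR1 and EGR3, and the stress and survival regulator IER3. Their messages were counted in 2 human cancer cell lines, MDA-MB-231 (breast cancer) and MDA-MB-435 (melanoma), each wild type by its labels, as a control and after 10 µM CPYPP for 6 h. CPYPP is a small-molecule inhibitor of DOCK, a family of exchange factors that activate the GTPase Rac1, and the study used it to induce paraptosis, a form of cell death with cytoplasmic vacuoles, for which transcription was one of the questions asked. There was 1 poly(A)-selected library per condition, so no spread between cultures could be estimated. Below, the lines are also called the breast cancer and the melanoma cells.

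Immediate early genes are transcribed within minutes of a mitogen or a stress, from factors that are already in the cell, and their messages are usually short-lived. Fos proteins bind DNA mainly as a dimer with a Jun protein, whereas Jun proteins can also pair with each other. Pairs with ATF and MAF relatives form as well, so that the mixture of subunits sets which AP-1 dimers can form. EGR1 and EGR3 bind GC-rich sites and act beside AP-1 on many of the same growth and repair genes.

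Reads counted on genes ranged from 17196385 to 22663954 per library. The line labels were checked against markers. Of 8 epithelial markers, 8 had at least 10 counts in both MDA-MB-231 libraries and 4 in both MDA-MB-435 libraries, where CDH1 was at 0 counts. Of 8 melanocyte markers, 6 had at least 10 counts in each MDA-MB-435 library (not the same 6, as PMEL had 13 and 4 counts and MLANA 9 and 14) against 2 or 3 in breast cancer cells, but the melanocyte enzyme TYR had only 2 and 3 counts in melanoma cells. PMEL had more counts in breast cancer cells (34 and 29), and MLANA (8 and 14) and control MITF (1585 against 1405 in melanoma cells) did not separate the lines. Those that clearly did were SOX10 (0 and 1 counts against 3031 and 707), DCT (1 and 3 against 658 and 464) and S100B (0 and 0 against 1055 and 761). The culture and treatment notes of all 4 samples mention MDA-MB-435 alone, so the line was read from each sample's cell line label.

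Levels between genes are given in TPM, which divides the counts of a gene by its exonic length and brings every library to the same sum, with a 95% exact Poisson interval for counting error alone. FOSL1, which encodes the subunit FRA1, stood highest in every library, at 575 TPM (interval 561 to 590) in the MDA-MB-231 control and 1015 TPM in the MDA-MB-435 control, where it was above 99.5% of the genes with at least 10 counts. FOS and FOSB, the subunits best known for rapid induction, were near the bottom in the controls. FOS was at 1.67 TPM (1.13 to 2.38) in breast cancer cells and 1.74 TPM (1.19 to 2.46) in melanoma cells, and FOSB at 0.575 and 1.94 TPM. EGR3 had between 1 and 7 counts in each library, below the minimum of 10 counts for a test, and the other 9 genes passed that minimum in all 4 libraries.

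In the MDA-MB-231 control the order of the levels was FOSL1, IER3 (326 TPM), FOSL2 (161 TPM), JUN (92.3 TPM), JUND (47.0 TPM), JUNB (26.8 TPM), EGR1 (4.69 TPM), FOS, FOSB and EGR3. No neighbours in that order had overlapping counting intervals. After CPYPP, JUN passed FOSL2 and JUNB passed JUND in this line. In the MDA-MB-435 control, JUN (121 TPM), JUNB (92.0 TPM, 86.3 to 97.9) and FOSL2 (90.5 TPM, 87.6 to 93.4) followed FOSL1 and IER3, and the intervals of JUNB and FOSL2 overlapped, as did those of EGR1, FOSB and FOS at the lower end. After CPYPP, IER3 moved from the second to the fourth place in melanoma cells, to 77.0 TPM (70.4 to 84.1), next to FOSL2 at 76.2 TPM (73.3 to 79.2), and their intervals overlapped.

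**Figure D1:**
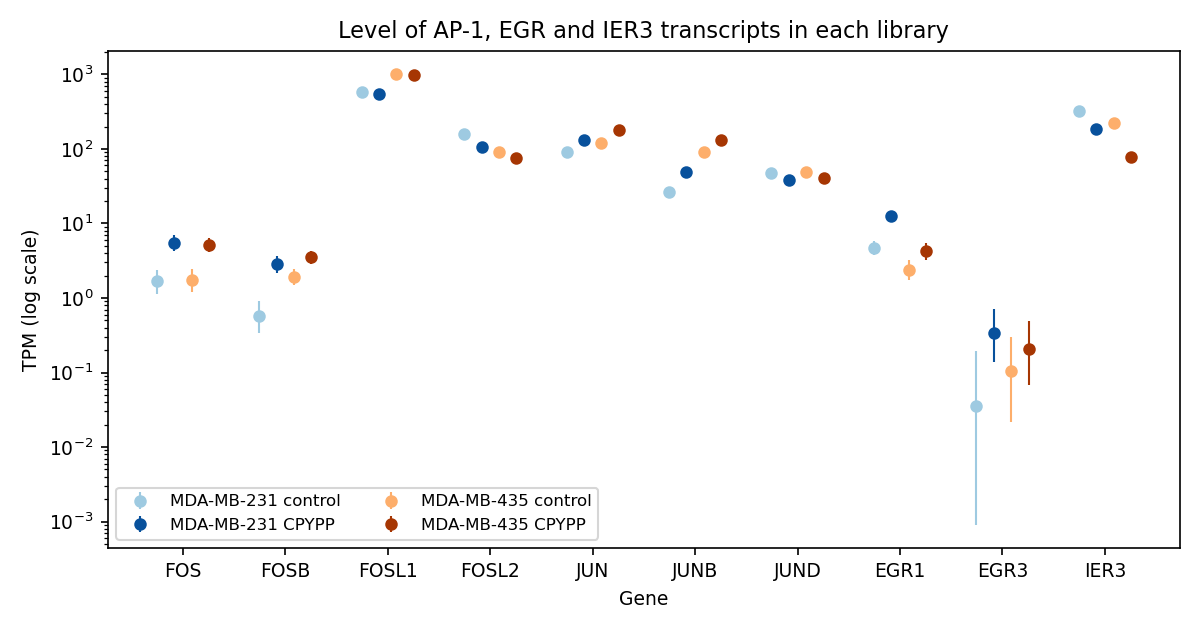
Level of each gene in each of the 4 libraries, in TPM on a log scale, with 95% exact Poisson intervals for counting error (intervals narrower than the points are hidden). FOSL1 lies highest in all 4 libraries, and the darker CPYPP points of FOS, FOSB and EGR1 lie above the lighter control points in each line, while those of IER3 lie below.

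After CPYPP, FOS was called higher in both lines, FOSB and EGR1 in breast cancer cells, and IER3 was called lower in melanoma cells. A gene was called within a line when edgeR's exact binomial test of the 2 libraries gave an adjusted p-value under 0.05 over all genes tested and the fold change was over 2. In MDA-MB-231, FOS, FOSB and EGR1 were called higher, 3 of the 9 genes tested, where 4.22% of all 16441 genes tested were called higher. None of the 9 was called lower by this test, where 3.09% of all genes were (7.31% in either direction). In MDA-MB-435, FOS was called higher (1 of 9, against 3.17% of 16527 genes) and IER3 was called lower (1 of 9, against 6.52%, and 9.69% in either direction). FOS was thus the only member called the same way in each line, which held for 1.04% of the 14262 genes tested in both when called higher, and 0.989% when called lower. These calls compare the reads of 2 libraries, not the conditions, and those of FOS and EGR1 are lost where a biological coefficient of variation of 0.2 is assumed in place of counting error alone. The call of IER3 is lost at 0.4, as is that of FOSB. With bulk RNA, fewer cells with a transcript and less of it per cell cannot be told apart.

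FOS (ENSG00000170345, chr14:75278826-75282230, plus strand, GRCh38), the founding Fos subunit, had 30 counts in the MDA-MB-231 control and 71 after CPYPP, and 32 and 78 counts in melanoma cells. Both CPYPP libraries lay above both control libraries, and the controls of the lines were nearly equal. The fold change, scaled by TMM (a scaling on the bulk of the genes), was 3.23 in breast cancer cells (95% exact binomial interval, Clopper-Pearson, 2.08 to 5.13) and 3.14 in melanoma cells (2.06 to 4.90). These folds lay above those of 97.9% and 98.6% of all genes tested. A joint fit of all 4 libraries, with the line as block, gave a common log2 change of 1.63 ± 0.385 (SE; edgeR quasi-likelihood test, adjusted p = 0.0309), so FOS rose across both lines. In that fit 4.39% of 16801 genes were called higher and 2.85% lower. Each gene has 1 residual degree of freedom there, the difference between the lines' responses. The test moderates that spread towards a trend over all genes, so the SE and p-value draw largely on other genes.

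FOSB (ENSG00000125740, chr19:45467995-45475179, plus strand), a Fos subunit that is induced with FOS and can persist longer, had 18 and 64 counts in breast cancer cells and 62 and 93 in melanoma cells. The MDA-MB-231 control was the lowest library, and the CPYPP library of that line, at 2.84 TPM (2.19 to 3.62), had an interval that overlapped that of the untreated MDA-MB-435 cells, at 1.94 TPM (1.49 to 2.49). The fold change was 4.85 (2.84 to 8.70) in breast cancer cells, above 99.2% of genes tested, and 1.94 (1.39 to 2.71) in melanoma cells, just below the threshold of 2. The counting intervals of the 2 lines did not overlap, but with 1 library per condition the difference in response was not tested. The common log2 change was 1.48 ± 0.430 (SE), and it missed the threshold (edgeR quasi-likelihood test, adjusted p = 0.0677), which it passed under 3 of 6 alternatives.

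FOSB overlaps the DNA repair gene ERCC1 on the opposite strand, and the strand setting of the counting is not given in the sources used here. ERCC1 had 1001 and 754 counts in breast cancer cells and 2361 and 1699 in melanoma cells, more than FOSB in every library. Its fold changes were 1.03 (0.934 to 1.13) and 0.928 (0.872 to 0.988). Between the controls ERCC1, like FOSB, had more counts in melanoma cells, and the part of shared reads in that contrast was not tested.

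EGR1 (ENSG00000120738, chr5:138465479-138469303, plus strand), a zinc finger factor induced by serum, stress and DNA damage, had 83 and 159 counts in breast cancer cells and 43 and 63 in melanoma cells. Each CPYPP library was above its own control, and the MDA-MB-435 CPYPP library, at 4.24 TPM (3.26 to 5.42), was within counting error of the untreated MDA-MB-231 cells at 4.69 TPM (3.74 to 5.82). The fold change was 2.61 (1.99 to 3.45) in breast cancer cells and 1.89 (1.26 to 2.85) in melanoma cells, and the intervals overlapped. The common log2 change was 1.13 ± 0.329 (SE) and missed the threshold (edgeR quasi-likelihood test, adjusted p = 0.0663), which it passed under 5 of 6 alternatives. Its relative EGR3 had 1 and 7 counts in breast cancer cells and 3 and 5 in melanoma cells. The ratios were 9.55 (1.23 to 430.5) and 2.15 (0.418 to 13.8), and at this depth no size of change could be set for EGR3.

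The start regions of these genes are shown as a description of sequence, and no regulator was tested. FOS, FOSB and EGR1, singled out after their folds were seen, are textbook targets of serum response factor and of CREB. The 250 bases before the annotated start were taken from RefSeq (GRCh38.p14) for the 7 genes found there by symbol. FOSL1, EGR3 and IER3 were not matched. For FOSL2 the RefSeq window (chr2:28392608-28392857) lies inside the gene as counted, which starts at 28392448. In the lines below, each promoter runs 5′ to 3′ on the strand of its gene, and the capitals mark the CArG box, the binding sequence of serum response factor, and the letters TGACG, which is the first part of the cyclic AMP response element TGACGTCA, on either strand (CGTCA on the other).
EGR1, chr5:138465229-138465478, plus strand: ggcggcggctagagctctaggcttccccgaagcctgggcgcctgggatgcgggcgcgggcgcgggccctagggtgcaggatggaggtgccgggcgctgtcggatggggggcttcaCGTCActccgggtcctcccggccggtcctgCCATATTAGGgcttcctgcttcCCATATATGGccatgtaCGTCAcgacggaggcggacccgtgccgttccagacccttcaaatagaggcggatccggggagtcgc
FOS, chr14:75278578-75278827, plus strand: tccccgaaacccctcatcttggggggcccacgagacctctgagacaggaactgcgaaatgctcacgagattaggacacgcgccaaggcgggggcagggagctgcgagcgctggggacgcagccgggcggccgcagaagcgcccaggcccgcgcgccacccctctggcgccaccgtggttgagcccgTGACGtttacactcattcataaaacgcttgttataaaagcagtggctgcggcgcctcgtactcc
FOSB, chr19:45467746-45467995, plus strand: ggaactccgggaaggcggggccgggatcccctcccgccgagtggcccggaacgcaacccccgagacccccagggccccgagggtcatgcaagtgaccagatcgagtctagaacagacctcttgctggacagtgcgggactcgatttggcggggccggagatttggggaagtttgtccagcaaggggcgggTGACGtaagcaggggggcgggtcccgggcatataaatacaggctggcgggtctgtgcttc
JUND, chr19:18281623-18281872, minus strand: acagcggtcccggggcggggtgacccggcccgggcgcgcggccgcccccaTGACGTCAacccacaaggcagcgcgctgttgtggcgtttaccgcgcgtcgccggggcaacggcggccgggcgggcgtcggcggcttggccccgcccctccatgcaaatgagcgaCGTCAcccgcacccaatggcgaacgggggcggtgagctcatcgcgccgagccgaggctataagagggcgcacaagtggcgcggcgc

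EGR1 held 2 CArG boxes, at 105 to 96 and 83 to 74 bases before the start. No other member's window held one, and 1.16% of 35116 promoter windows of the same length did. The whole element TGACGTCA was found in JUND alone, 200 to 193 bases before the start (1.65% of promoters). The shorter TGACG was present in all 7 windows, against 21.2% of all promoters. It was counted after the letters had been seen, and it is contained in the whole element. FOS, FOSB and JUNB held TATAAA (10.7% of promoters), and JUN, JUNB and JUND held CCAAT (32.0%). The AP-1 site TGACTCA (4.2% of promoters), the EGR site GCGTGGGCG or GCGGGGGCG (5.37%) and the C/EBP-ATF site TGATGCAA (0.772%) were in none of the 7. The heat shock motif TTCNNGAA or GAANNTTC was in JUN (11.6% of promoters), and the antioxidant motif TGACNNNGC in JUND (10.9%). All motifs were searched on both strands. A match is a description of the letters, and sites farther from the start were outside the window.

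FOSL1 and FOSL2, the Fos subunits without the strong activation domain of FOS and FOSB, were called in neither line. FOSL1 (ENSG00000175592, chr11:65892049-65900573, minus strand) had 6117 and 4170 counts in breast cancer cells and 11023 and 8772 in melanoma cells. Scaled for library size, its fold change was 0.930 (0.894 to 0.968) and 1.03 (0.998 to 1.06), and the latter turns to a value below 1 when scaled by total counts or the upper quartile. FOSL2 (ENSG00000075426, chr2:28392448-28417317, plus strand), which encodes FRA2, had 6487 and 3042 counts in breast cancer cells and 3731 and 2587 in melanoma cells.

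Each CPYPP library of FOSL2 was below its own control. The fold change was 0.640 (0.613 to 0.668) and 0.894 (0.850 to 0.941), short of the threshold of 2 in either line, and the common log2 change of -0.45 ± 0.126 (SE) missed the threshold (edgeR quasi-likelihood test, adjusted p = 0.0601), which it passed under 4 of 6 alternatives. For FOSL1 the common log2 change was -0.08 ± 0.108 (adjusted p = 0.767, same test). The 4 Fos genes thus covered most of the range of the set in breast cancer cells, from the 10.6th percentile of all tested genes for FOSL2 to the 99.2nd for FOSB.

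JUN, the Jun subunit with the strongest activating function, and JUNB, which can oppose it, rose across both lines by less than 2-fold, whereas JUND, the subunit of resting cells, did not pass the test. JUN (ENSG00000177606, chr1:58776845-58784048, minus strand) had 1885 and 1915 counts in breast cancer cells and 2532 and 3123 in melanoma cells. The CPYPP library of breast cancer cells was the shallowest of the 4, so nearly equal counts there became a fold change of 1.39 (1.3 to 1.48), and in melanoma cells it was 1.59 (1.51 to 1.68). The common log2 change of JUN was 0.53 ± 0.110 (SE; edgeR quasi-likelihood test, adjusted p = 0.0180). JUN stood above 84.1% and 91.5% of genes tested in the 2 lines.

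JUNB (ENSG00000171223, chr19:12791486-12793315, plus strand) had 276 and 366 counts in breast cancer cells and 969 and 1159 in melanoma cells, so that the control libraries differed more from each other than from their CPYPP libraries. The fold change was 1.81 (1.54 to 2.12) and 1.54 (1.42 to 1.68), with a common log2 change of 0.69 ± 0.151 (SE; edgeR quasi-likelihood test, adjusted p = 0.0229). JUNB overlaps HOOK2, a gene for a microtubule linker, on the opposite strand. HOOK2 had 154 and 95 counts in breast cancer cells and 574 and 329 in melanoma cells, fold changes of 0.842 (0.645 to 1.09) and 0.739 (0.644 to 0.848), the opposite direction to JUNB. Between the controls HOOK2, like JUNB, had more counts in melanoma cells, and the part of shared reads in that contrast was not tested. FOSL2 and IER3 also have neighbours on the opposite strand, with at most 25 counts (FOSL2-AS1) and 12 counts (HCG20) in any library.

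JUND (ENSG00000130522, chr19:18279694-18281622, minus strand) had 511 and 298 counts in breast cancer cells and 552 and 376 in melanoma cells, and the 2 controls were alike. The fold change was 0.796 (0.688 to 0.920) in breast cancer cells and 0.879 (0.769 to 1.00) in melanoma cells, and the common log2 change of -0.30 ± 0.159 (SE) did not pass (edgeR quasi-likelihood test, adjusted p = 0.325).

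IER3 (ENSG00000137331, chr6:30743199-30744548, minus strand), a short stress-induced gene that modulates cell survival and ERK signalling, moved against FOS. It had 2480 and 1008 counts in breast cancer cells and 1756 and 493 in melanoma cells. Both CPYPP libraries were below both controls. The fold change was 0.555 (0.515 to 0.597) in breast cancer cells, which missed the threshold of 2, and 0.362 (0.327 to 0.40) in melanoma cells, which is 2.76-fold lower. Over both lines IER3 fell by 1.19 on the log2 scale ± 0.163 (SE; edgeR quasi-likelihood test, adjusted p = 0.00224), the smallest adjusted p of the 9 genes tested. The counting intervals of the lines did not overlap for IER3, FOSB, FOSL2, FOSL1 and JUN, and they did for FOS, JUNB, JUND, EGR1 and EGR3. These differences between the lines were not tested.

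**Figure D2:**
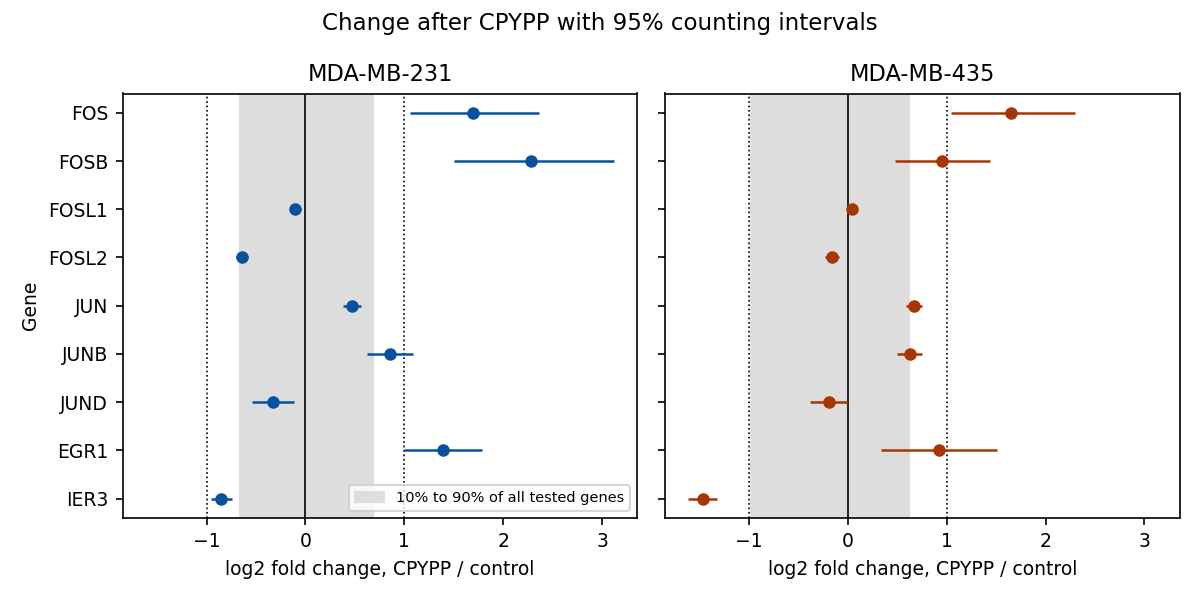
log2 fold change of CPYPP over control in each line for the 9 genes with at least 10 counts, with 95% exact binomial intervals for counting error. The grey band holds the middle of all tested genes, from the 10th to the 90th percentile, and the dotted lines mark a fold change of 2. FOS, FOSB, EGR1 and JUNB lie to the right of the band in both panels, JUNB only just so in MDA-MB-435, and IER3 lies to the left. JUN lies to the right of it in MDA-MB-435 alone.

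Counting all 10 genes by their intervals, 6 lay above 1 and 4 below 1 in breast cancer cells. In MDA-MB-435, 5 lay above 1, 2 below 1 (FOSL2 and IER3) and 3 included 1 (FOSL1, JUND and EGR3). The share of all genes whose intervals leave out 1 was not computed, so these counts have no baseline. With many reads an interval leaves out 1 at a small change. FOSL1 counts as below 1 in breast cancer cells at 0.930 (0.894 to 0.968), at the 39.8th percentile of tested genes. The median log2 fold change of the 9 tested genes was 0.47 in breast cancer cells and 0.63 in melanoma cells, where the median of all tested genes was -0.01 in each.

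FOS and FOSB were rare among the AP-1 subunit messages in the controls and at 6 h of CPYPP, in spite of their folds. Earlier times after CPYPP were not sampled. Summed over FOS, FOSB, FOSL1 and FOSL2, Fos family messages came to 738 TPM in the MDA-MB-231 control and 657 TPM after CPYPP, and to 1109 and 1065 TPM in melanoma cells. FOSL1 made up 77.9% and 82.8% of the family in breast cancer cells and 91.5% and 92.0% in melanoma cells. FOS went from 0.226% to 0.835% of the Fos messages in breast cancer cells and from 0.157% to 0.485% in melanoma cells, and FOSB from 0.0779% to 0.432% and from 0.175% to 0.332%. FOSL2 held 21.8% and 15.9% in breast cancer cells and 8.16% and 7.15% in melanoma cells.

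Jun family messages summed to 166 TPM in the MDA-MB-231 control and 217 TPM after CPYPP, and to 263 and 356 TPM in melanoma cells. The share of JUND was lower after CPYPP in each line, 28.3% and then 17.5% in breast cancer cells and 18.9% and then 11.5% in melanoma cells. JUNB took 16.1% and 22.7% in breast cancer cells and 35.0% and 37.5% in melanoma cells, and JUN took 55.6% and 59.9% in the former and 46.1% and 51.0% in the latter. The ratio of summed Fos to summed Jun TPM was 4.45 in the control and 3.02 after CPYPP in breast cancer cells, and 4.22 and 2.99 in melanoma cells. These shares describe messages and not protein, and they have no replicate.

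**Figure D3:**
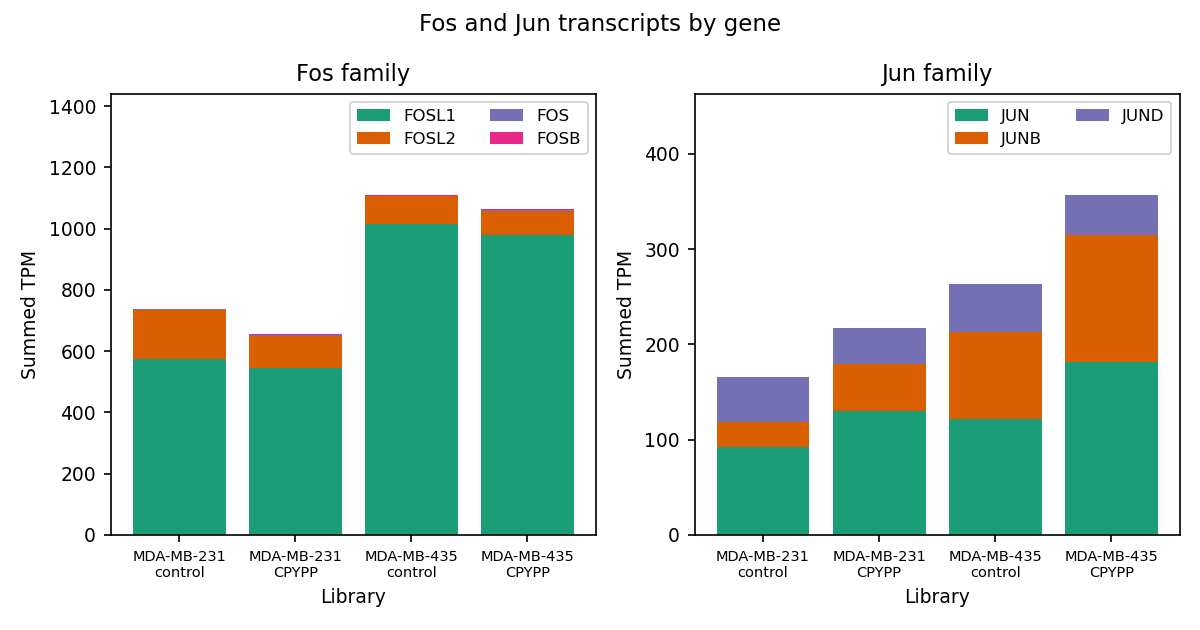
Summed TPM of the Fos genes (left) and the Jun genes (right) in each library, stacked by gene. FOSL1 makes up most of each Fos bar, FOS and FOSB are under 1% of it, and the Jun bars are taller after CPYPP in both lines, 217 against 166 TPM and 356 against 263 TPM.

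The untreated lines differed in their AP-1 make-up. Between the control libraries, JUNB was 3.28-fold higher (2.86 to 3.76) and FOSB 3.21-fold higher (1.88 to 5.77) in melanoma cells. Each overlaps a gene on the opposite strand that also had more counts there (HOOK2 and ERCC1), and the part of shared reads was not tested. FOSL1 was 1.68-fold higher (1.63 to 1.73) there and JUN 1.25-fold higher (1.18 to 1.33). In MDA-MB-231, EGR1 was 2.07-fold higher, FOSL2 1.86-fold higher and IER3 1.51-fold higher. FOS (0.995, 0.586 to 1.70) and JUND (1.01, 0.892 to 1.14) were alike in the controls within counting error. With 1 library a line, these ratios have no replicate check.

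The genes whose pattern was most like those of the members with the largest change were sought among 14375 genes, by the distance between log2(CPM + 1) values centred over the 4 libraries. For FOSB, which changed most in breast cancer cells, they were CHRNA3 (a nicotinic receptor subunit, distance 0.149, with 5, 33, 28 and 56 counts), EGF (a growth factor, distance 0.167) and the noncoding RNA KCNQ1OT1 (distance 0.219). For FOS, the largest rise in melanoma cells, they were C21orf91 (distance 0.0566), MAFG (0.127) and RBBP6 (0.139), all of which had more counts in each CPYPP library than in its control. Over 4 libraries such likeness is a description.

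Of the 30 other immediate early genes, a few were called and most of these were higher. In MDA-MB-231, 27 were tested, of which 4 were called higher and 1 lower, where 4.22% and 3.09% of all genes were. In the melanoma line, 26 were tested, of which 4 were called higher and 0 lower, where 3.17% and 6.52% of all genes were. With a biological coefficient of variation of 0.2 assumed, the higher calls dropped to 1 and 3, and with 0.4 to 0 in each line. The median log2 fold change was 0.23 in breast cancer cells and 0.62 in melanoma cells. Called higher in each line were DUSP1 and BTG2. DUSP1, a phosphatase that switches off MAP kinases, had 1658 and 3579 counts in breast cancer cells and 230 and 732 in melanoma cells, fold changes of 2.95 (2.78 to 3.12) and 4.105 (3.535 to 4.78). BTG2, an antiproliferative gene, had 40 and 70 counts in breast cancer cells and 42 and 107 in melanoma cells, fold changes of 2.39 (1.60 to 3.62) and 3.29 (2.28 to 4.81).

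The nuclear receptor NR4A1 was called higher in breast cancer cells, at 3.06-fold (1.88 to 5.11), and was at 1.58-fold (1.33 to 1.87) in melanoma cells. In the fit over both lines, 8 of 28 rose and 1 fell, where 4.39% and 2.85% of all genes did. The 1 that fell was the TGF-beta inducible repressor KLF10 (chosen after its value was seen). Its log2 change was -0.73 ± 0.154 (SE, edgeR quasi-likelihood test, adjusted p = 0.0194). For DUSP1 the common log2 change was 1.73 ± 0.136 (SE; edgeR quasi-likelihood test, adjusted p = 7.12e-05), beside 1.63 for FOS.

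Of 15 dimer partners and relatives of AP-1, 13 were tested in breast cancer cells with 5 called higher and 0 lower (4.22% and 3.09% of all genes), and 12 in melanoma cells with 4 called higher and 1 lower (3.17% and 6.52% of all genes). The higher calls dropped to 1 and 3 with a biological coefficient of variation of 0.2, and to 0 and 1 with 0.4. The median log2 fold change was 0.60 in each line. ATF3, DDIT3 and MAFG were called higher in each. ATF3, a stress-induced repressor that pairs with Jun proteins, was at 6.23 and 30.8 TPM in breast cancer cells and at 4.90 and 126 TPM in melanoma cells, above FOS and FOSB in every library. In the MDA-MB-435 CPYPP library it came close to JUNB (134 TPM). DDIT3, the stress factor CHOP, had 307 and 462 counts in breast cancer cells and 190 and 749 in melanoma cells. MAFG, a small MAF protein that pairs with NRF2, had 1601 and 2955 counts in breast cancer cells and 1657 and 3090 in melanoma cells, fold changes of 2.52 (2.37 to 2.68) and 2.41 (2.27 to 2.56). The gene called lower in melanoma cells was BATF2 (chosen after its value was seen), with 14 counts and then 0. Its call is lost with a biological coefficient of variation of 0.2 and with at least 10 counts required in both libraries. Over both lines 6 of 13 rose and 0 fell, where 4.39% and 2.85% of all genes did.

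Lists of the signalling machinery that acts on these genes were short, so that a share like that of all genes (7.31% and 9.69% called in either direction) would be a few genes at most. None of the 15 upstream factors and EGR corepressors, such as SRF, ELK1 and NAB2, was called in either line by edgeR's binomial test with its fold threshold, with medians of 0.30 and 0.14 on the log2 scale. Over both lines 3 of them rose and 0 fell, where 4.39% and 2.85% of all genes did. The 3 were CREB1 (0.53 ± 0.128 SE), CREM (0.68 ± 0.144 SE) and the coactivator CREBBP (0.61 ± 0.123 SE), all chosen after their values were seen. None of the 23 MAP kinase pathway genes was called in breast cancer cells, or of the 22 tested in melanoma cells, with medians of 0.05 and 0.11. Over both lines 1 of 23 rose, beside 4.39% of all genes. It was MAP2K4, a kinase upstream of JNK (0.65 ± 0.116 SE), also chosen after its value was seen. For decay of AU-rich messages, the route by which FOS mRNA is degraded, 1 of 12 genes was called higher in breast cancer cells and 0 in melanoma cells, and the 1 call is lost with a biological coefficient of variation of 0.2. It was ZFP36, itself an immediate early gene and on both lists, with 129 and 213 counts in breast cancer cells (2.25-fold, 1.80 to 2.83) and 240 and 345 in melanoma cells (1.85-fold, 1.57 to 2.2).

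Known AP-1 target genes, as a list, had the median of all genes, with single members called in both directions. In MDA-MB-231, 15 of 20 were tested, of which 0 were called higher and 2 lower (4.22% and 3.09% of all genes). In melanoma cells, 16 were tested, of which 1 was called higher and 2 lower (3.17% and 6.52% of all genes). With a biological coefficient of variation of 0.2 the lower calls dropped to 1 and 0. The median log2 fold change was -0.01 in each line. PLAU, the urokinase protease, was called lower in each, with 7489 and 2582 counts in breast cancer cells (0.471-fold, 0.450 to 0.492) and 260 and 77 in melanoma cells (0.382-fold, 0.292 to 0.494). The cytokine IL6 had 530 counts and then 70 in breast cancer cells (0.18-fold, 0.138 to 0.232), while MDA-MB-435 had 1 and 0 counts.

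CXCL8, the neutrophil chemokine, moved the other way, with 630 and 753 counts in breast cancer cells (1.63-fold, 1.47 to 1.82) and 1520 and 8303 in melanoma cells (7.05-fold, 6.67 to 7.45), where it was called higher. In the joint fit 1 of 16 AP-1 targets rose and 5 fell, where 4.39% and 2.85% of all genes did. One of the 5 is IL6, whose value there rests on the breast cancer cells alone. Of 12 known EGR1 targets, 11 were tested in breast cancer cells with 0 called higher and 1 lower (4.22% and 3.09% of all genes). In melanoma cells 10 were tested, with 0 called in either direction by edgeR's binomial test (9.69% of all genes). The one called lower was the growth factor FGF2, with 22 counts and then 2 in breast cancer cells (0.124-fold, 0.0141 to 0.505) and 1462 and 1100 in melanoma cells (0.970-fold, 0.897 to 1.05). This call is lost with a biological coefficient of variation of 0.2 and with at least 10 counts required in both libraries. Over both lines 0 of 11 rose and 1 fell, where 4.39% and 2.85% of all genes did.

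**Figure D4:**
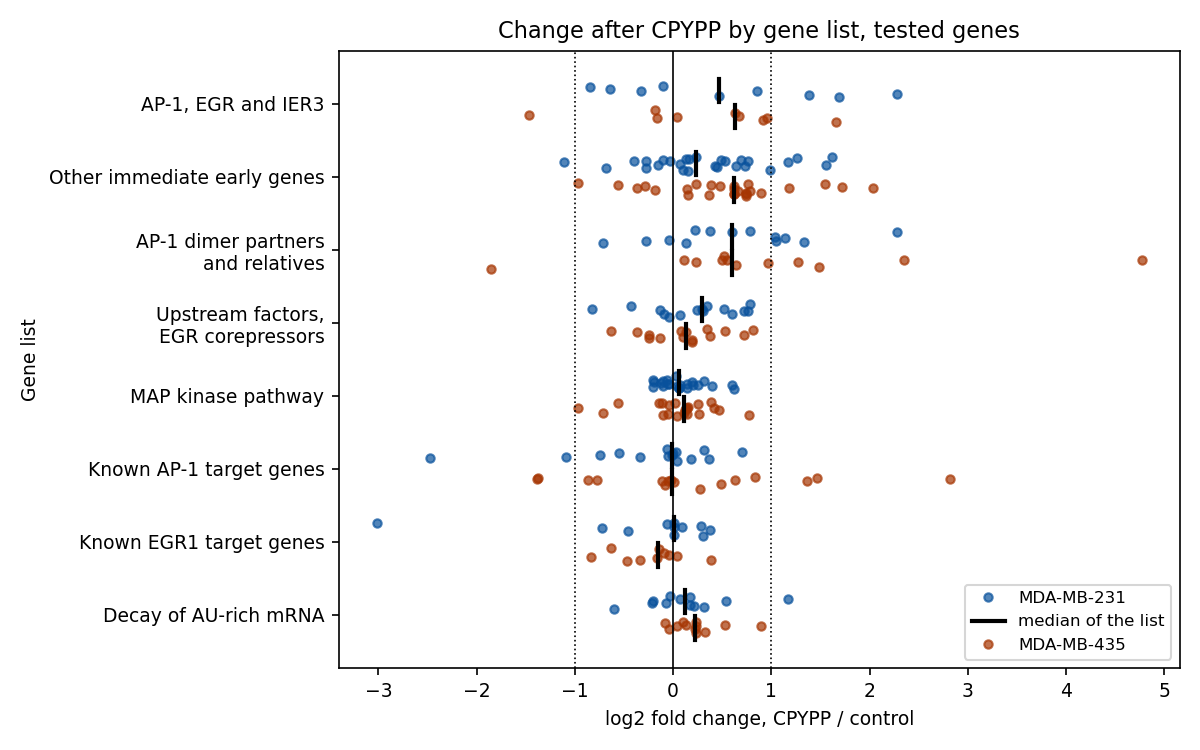
log2 fold change of CPYPP over control for every tested gene of each list, one point per gene and line, with the median of each list as a black bar and dotted lines at a fold change of 2. Medians of the AP-1, EGR and IER3 set, other immediate early genes and AP-1 partners lie to the right of 0 in both lines. So do those of the upstream factors (0.30 and 0.14), the MAP kinase pathway (0.05 and 0.11) and AU-rich decay (0.12 and 0.23). Values are for breast cancer and then melanoma cells. For breast cancer cells, the upstream median is above that of the other immediate early genes (0.23). Medians of the AP-1 targets lie at -0.01, and those of the EGR1 targets at 0.01 and -0.15. BATF2 in melanoma cells, with a CPYPP count of 0, is drawn at the value for 3 counts.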

How the data were processed

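RNA-seq libraries of 2 cell lines, each as control and after CPYPP, were analysed from the raw counts per gene that the authors deposited, which carry no normalization. The submitters' processing notes name cutadapt 1.9.1, HISAT2 2.2.1, HTSeq 0.6.1, DESeq2 and GRCh37.p13. The positions in the table are nevertheless those of GRCh38: of 58254 identifiers also in GENCODE v29, 58196 overlap the position given there. The annotation version and strand setting are not given in the sources used here.

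Members were matched by symbol. Members and gene lists were chosen with earlier results of these data known. Folds used TMM factors of the 2 libraries of a line (1.02 and 0.976 for the breast cancer cells, 1.05 and 0.950 for the melanoma cells), over genes with at least 10 counts in either. Calls used edgeR 4.0.16 (binomTest, Benjamini-Hochberg adjusted p under 0.05, fold over 2, counts under 3 set to 3 for the fold). The common effect was edgeR's quasi-likelihood test after filterByExpr with the line as a block. TPM was computed here from counts and the exonic lengths in the table, which count all annotated exons, so that a gene whose used transcript is shorter is understated. Intervals (95%) cover counting error only, and PCR reads without molecular identifiers are not independent molecules. At these depths (17196385 to 22663954 counts) genes near 10 counts have intervals that span several-fold.

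Named genes were the 10 members, in each list the genes called alike in both lines (at most 5) and the 2 largest called changes per line, and the 3 nearest patterns of the member that changed most in each line. The lists were other immediate early genes, AP-1 partners, upstream factors, MAP kinase pathway, AP-1 targets, EGR1 targets, AU-rich decay, and melanocyte and epithelial markers. On simulated data with counting error alone, 98% of 2.5-fold changes were recovered for MDA-MB-231, and 99% for MDA-MB-435. The changes were placed only in genes above a minimum count summed over the libraries. These rates therefore do not describe calls of genes with few counts, or calls under variation between cultures. Alternatives concerned normalization, filters on low counts, assumed biological variation, the fold threshold, DESeq2 1.42.0 and the line block. R 4.3.3 and Python 3.11.15 were used.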

Additional observations from a re-analysis of the deposited data

How the results depend on the processing

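With a biological coefficient of variation set to 0.2, 1 member (FOSB) was called higher in MDA-MB-231 in place of 3, and 0 in place of 1 in MDA-MB-435. With 0.4, 0 members were called higher in either line and 0 lower in MDA-MB-435. With a fold over 4, 1 was called higher in MDA-MB-231 and 0 in either direction in MDA-MB-435. With a fold over 1.5, 2 were called lower in MDA-MB-231 and 5 higher in MDA-MB-435. In the fit over both lines, 5 members passed higher and 2 lower under total counts, under the upper quartile and with at least 1 count in any library, and DESeq2 passed 2 lower. EGR1 then passed under every alternative but the one with no block (adjusted p = 0.0337 with DESeq2 and 0.0465 with at least 10 counts in every library), and FOSB passed under total counts (0.0278), the upper quartile (0.0373) and with at least 1 count in any library (0.00148). The second member lower was FOSL2 (0.0465 with DESeq2, 0.00448 with total counts, 0.0219 with the upper quartile and 0.0119 with at least 1 count in any library). Without the line as a block, 0 passed higher and 0 lower by edgeR, as for all genes (167 at an unadjusted p under 0.05), where the fitted biological coefficient of variation was 0.881 in place of 0.121. The log2 fold change of FOSL1 in MDA-MB-435 reversed, to -0.11 with total counts and -0.073 with the upper quartile. Total counts shifted the median of all genes in MDA-MB-435 from -0.01 to -0.16, and the share of called genes that were higher from 32.7% to 19.9% (22.8% with the upper quartile), and in MDA-MB-231 from 57.7% to 50.04%. Of the other values for single members, 179 kept their call and direction, 19 gained a call and 16 lost one. The cause of these changes was not tested. Part of the 179 was fixed beforehand. Within a line, the filters, the assumed variation and the fold threshold leave the log2 fold change itself as it was. A gene not called in the main setting also cannot gain a call with a fold over 4. The joint fit pairs the control and CPYPP libraries of a line. The labels carry no replicate numbers for any other pairing, and with 1 library per condition none could be left out. Depth limits FOS, FOSB, EGR1 and EGR3, which have under 160 counts in every library.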

Other observations

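Among the marker genes used to check the lines, the melanocyte regulator SOX10 was called lower in MDA-MB-435, at 0.301-fold (0.277 to 0.327), and MITF, which SOX10 activates, had 1585 and 690 counts in the breast cancer cells and 1405 and 809 in the melanoma cells. In the joint fit MITF and SOX10 passed as lower (2 of 6 melanocyte markers tested, with 0 higher), where 2.85% of all genes passed as lower. SOX10 had 0 counts and then 1 in the breast cancer cells, so its value there rests on the melanoma cells alone. In the same fit 0 of 8 epithelial markers passed in either direction by edgeR's quasi-likelihood test (4.39% of all genes higher, 2.85% lower). In MDA-MB-231 the cadherin CDH3, with 21 and 36 counts, was the epithelial marker called higher (2.34-fold, 1.33 to 4.22), while CDH1 had 837 and 464 counts.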
